A study of Homo sapiens with 9 samples.

Results

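Cells meet misfolded protein in the cytosol with a set of chaperones and cochaperones, and 44 genes of that set were read here in HEK293 cells making wild-type or mutant surfactant protein C. The 44 were listed by name as cytosolic chaperones and heat shock genes. Each was read from the Affymetrix probe set (a group of short probes for a transcript) that names that gene alone and has the highest mean log2 value over the 9 arrays, called its brightest probe set below. Of the 44, 40 had such a probe set, among 19775 genes on the array that did, and 39 passed the filter on dim probe sets, among 14018 genes tested. HSPA8, AHSA1, HSF2 and TCP1 had no probe set naming them alone and were not analysed here. CRYAB, a small heat shock protein, was below the filter and was below the array median on every array, with intensities of 302, 478 and 292 with wild type, 288, 81.8 and 282 with Ex4, and 215, 151 and 100 with LQ.

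HEK293 is a line derived from human embryonic kidney, and surfactant protein C (SP-C) is a small hydrophobic protein that alveolar type II cells of the lung make as a longer proprotein. The cells were transiently transfected with 1 of 3 forms. The control group (WT) received the wild-type protein, the second group (Ex4) a mutant lacking exon 4, and the third (LQ) a mutant with the L188Q substitution, with 3 arrays in each. All 3 groups therefore carry transfected SP-C. An empty-vector or untransfected group was not analysed here. The labels give neither the vector and its promoter nor the share of cells that took it up, so each array is an average over all cells of a dish, and fewer responding cells cannot be told apart from less RNA per cell. Nothing in them ties a replicate to a dish or culture of its own, so the p-values rest on array-to-array spread that could be technical.

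HSP70 proteins (HSPA genes) hold unfolded stretches of protein and release them in cycles of ATP hydrolysis, DNAJ proteins bring them clients and start hydrolysis, and BAG and HSP110 proteins release the spent nucleotide. HSP90 proteins act later on partly folded clients with their own partner proteins, small heat shock proteins bind unfolding clients without ATP, and the TRiC chaperonin folds actin and tubulin inside a ring. Heat shock factor 1 (HSF1) is the transcription factor of the cytosolic heat shock response and binds the heat shock element, a run of inverted GAA units. SP-C enters the endoplasmic reticulum, whose chaperones are a separate set and are not among the 44.

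The promoters of the heat shock genes show where that element lies. RefSeq (GRCh38.p14) gave a window of 250 bases before to 50 bases after the start for 38 of the 44 genes. Each window was searched on both strands for 3 units and for 2 units that alternate GAA and TTC, starting with either, with 2 bases of any kind between neighbours. A match of 3 units thus holds 2 overlapping matches of 2 units. The longer form was in 7 of the 38 genes (18.4%), against 0.608% of 27305 genes with a window, and the shorter in 19 (50%), against 16.2%. The 7 were HSPA6, HSPA8, HSP90AA1, HSP90AB1, DNAJA1, DNAJB6 and CHORDC1. Below are the 250 bases before the start of 6 genes whose values are given later, in lower case with matches of either form in capitals. HSPA6, CHORDC1, DNAJB6 and HSP90AA1 hold the longer form, and DNAJB1 and HSPB8 only the shorter. HSPA6 is at chr1:161524290-161524539 on the plus strand, CHORDC1 at chr11:90223050-90223299 on the minus strand and DNAJB6 at chr7:157336754-157337003 on the plus strand. HSP90AA1 is at chr14:102087045-102087294 on the minus strand, DNAJB1 at chr19:14518398-14518647 on the minus strand and HSPB8 at chr12:119178681-119178930 on the plus strand. Some genes have several windows, and a gene counts as holding a match if any of its windows does. HSP90AA1 has 2 windows and DNAJB1 has 3, and the window shown for each was chosen because it holds matches, while the first window of each holds none. A match describes the letters only.
HSPA6: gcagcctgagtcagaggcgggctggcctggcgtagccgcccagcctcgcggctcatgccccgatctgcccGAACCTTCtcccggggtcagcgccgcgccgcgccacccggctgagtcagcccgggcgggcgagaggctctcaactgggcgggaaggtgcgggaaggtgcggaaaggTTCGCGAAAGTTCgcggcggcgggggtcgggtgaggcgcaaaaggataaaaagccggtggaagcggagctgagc
CHORDC1: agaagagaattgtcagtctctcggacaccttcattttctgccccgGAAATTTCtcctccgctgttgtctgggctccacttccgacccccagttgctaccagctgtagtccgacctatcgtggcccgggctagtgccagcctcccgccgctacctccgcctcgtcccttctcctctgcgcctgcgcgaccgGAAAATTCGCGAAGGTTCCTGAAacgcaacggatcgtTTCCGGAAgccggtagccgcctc
DNAJB6: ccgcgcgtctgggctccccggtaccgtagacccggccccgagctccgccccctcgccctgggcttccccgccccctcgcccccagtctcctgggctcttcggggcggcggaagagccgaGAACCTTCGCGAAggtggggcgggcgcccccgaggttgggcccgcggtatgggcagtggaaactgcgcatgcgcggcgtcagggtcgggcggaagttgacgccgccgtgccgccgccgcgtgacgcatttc
HSP90AA1: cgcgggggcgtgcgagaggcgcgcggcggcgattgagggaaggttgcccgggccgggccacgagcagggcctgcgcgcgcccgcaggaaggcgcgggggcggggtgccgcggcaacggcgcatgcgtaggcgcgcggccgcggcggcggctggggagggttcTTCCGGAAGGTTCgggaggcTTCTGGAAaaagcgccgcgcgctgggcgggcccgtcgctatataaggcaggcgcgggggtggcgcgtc
DNAJB1: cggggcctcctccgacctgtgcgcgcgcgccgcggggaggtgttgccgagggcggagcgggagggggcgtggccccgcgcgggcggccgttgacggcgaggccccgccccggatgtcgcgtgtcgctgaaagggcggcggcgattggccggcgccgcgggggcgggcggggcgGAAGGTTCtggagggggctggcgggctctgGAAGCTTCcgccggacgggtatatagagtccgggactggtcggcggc
HSPB8: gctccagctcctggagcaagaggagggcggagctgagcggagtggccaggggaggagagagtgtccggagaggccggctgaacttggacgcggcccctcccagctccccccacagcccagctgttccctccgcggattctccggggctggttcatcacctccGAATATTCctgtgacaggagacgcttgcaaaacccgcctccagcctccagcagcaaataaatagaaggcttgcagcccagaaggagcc

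The 6 sequences differ in how the element is built. CHORDC1 has 3 overlapping matches of the longer form in 1 run close to its start, made of GAAAATTCGCGAA, TTCGCGAAGGTTC and GAAGGTTCCTGAA. HSPA6 has TTCGCGAAAGTTC, DNAJB6 has GAACCTTCGCGAA and HSP90AA1 has TTCCGGAAGGTTC.

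The values are MAS5 intensities on a linear scale. Apart from summed markers, a level is compared between groups only within the same probe set. Some levels are also set against the array median. A change is a difference of mean log2(intensity + 16), 3 arrays against 3. Its standard error is limma's, from a spread estimated over all 9 arrays, and is the same in all 3 comparisons of a probe set. Adjusted p-values are from limma, fitted to all tested probe sets, with Benjamini-Hochberg adjustment and a threshold of 0.05. Array medians were 506.4 to 524.4 with WT, 316.1 to 434.3 with Ex4 and 303.9 to 371.8 with LQ. The 3'/5' ratio of the GAPDH control probes, a sign of RNA integrity, was 1.21 to 1.43, 0.956 to 1.22 and 1.06 to 1.09 in the same order. For the ACTB control probes it was 1.05 to 1.27, 1.15 to 1.48 and 1.15 to 1.23. Ex4 replicates 2 and 3 had the highest ACTB ratios, 1.43 and 1.48. The brightest SFTPC probe set, which reads the transfected gene, gave 173160 to 261955 with WT, 97630 to 169241 with Ex4 and 108963 to 132058 with LQ. All 10 HEK293 markers were above the array median on all 9 arrays, while 3 of 8 alveolar type II markers with a probe set were. Summed HEK293 markers ran from 156196 to 194063 with WT, 148519 to 155386 with Ex4 and 153666 to 165454 with LQ. Of the 10, 1 was called lower with LQ (10%, against 7.32% of all genes called in either direction) and 0 were called with Ex4. Summed fibroblast markers, 4 of 7 of them below the median everywhere, ran from 6898 to 8291, 4768 to 6044 and 3344 to 4551, and blood cell markers from 2319 to 2975, 1538 to 1671 and 1315 to 1555. With LQ, 1 of 2 tested fibroblast markers was called lower (50%), and 0 of 3 blood cell and 0 of 7 alveolar type II markers were called. With Ex4, 0 markers of these lists were called. No marker was at 0. These differences move with the groups, and their part in the results below was not tested. Ex4 replicate 1 had a mean correlation over probe sets of 0.906 with the other Ex4 arrays and 0.911 with WT. Results that rest on that array are given without it too. Leaving it out raised the share of all genes called from 0% to 13.8% with Ex4 and from 7.32% to 14% with LQ. WT replicates 1 and 2 had lower means with their own group, at 0.892 and 0.903. WT replicate 1 also had the highest GAPDH ratio, 1.43, and some results are given without it as well. Leaving out WT replicate 1 raised the same shares to 13.8% and 17.8%.

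With Ex4, no chaperone gene passed the threshold. In LQ cells the brightest probe sets of the small heat shock protein HSPB8 and the cochaperone BAG4 rose, by 1.78-fold and 1.58-fold, and no brightest probe set was called lower. These calls were kept in 4 and 2 of the 9 fits without 1 array. HSPB8's other probe set had an LQ change of -0.67, and averaging the probe sets of a gene left HSPB8 at 0.08 and BAG4 at 0.22. The second probe set of HSPA6 was called lower with LQ, at -1.55 (limma adjusted p = 0.037). HSPA6, the strictly inducible HSP70, had its highest arrays with Ex4 and its lowest with LQ. The HSP90 pair and the TRiC subunits had changes of at most 0.43 in size in either mutant, and none of these passed with the settings as reported.

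For Ex4 against WT, 0 of the 39 tested members had an adjusted p under 0.05, as did 0% of the 14018 genes. At an unadjusted p under 0.05, 5 members were higher and 0 lower (12.8%), against 27.2% of all genes (12.1% higher and 15.1% lower). The 5 were HSPA6, HSPH1, BAG3, BAG4 and CHORDC1. Members with positive changes numbered 26 of 39, against 43.6% of all genes, and their median change was 0.05, against -0.08 over all genes. In 5 members every Ex4 array was above every WT array, against 9.07% of all genes, and in 0 every Ex4 array was below, against 14.9%. For LQ against WT, 2 members were called higher and 0 lower (5.13%), against 7.32% of all genes (517 or 3.69% higher and 509 or 3.63% lower), a share near that background and no result about the list. At an unadjusted p under 0.05 there were 7 higher and 5 lower, 30.8% against 30.6% of all genes (13.4% higher and 17.2% lower). The positive changes numbered 22 of 39, and the median was 0.08, against -0.09 over all genes. In 10 members every LQ array was above every WT array, against 15.7% of all genes, and in 5 every one was below, against 23.2%. Centring each array on its median log2 value, in place of the deposited scaling, moved the median of all genes to 0.41 with Ex4 and 0.49 with LQ. All genes then split into 2592 higher and 118 lower with Ex4 and 4057 higher and 170 lower with LQ, and the members into 9 higher and 0 lower and into 18 higher and 0 lower. Their medians were then 0.54 and 0.66.

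**Figure D1:**
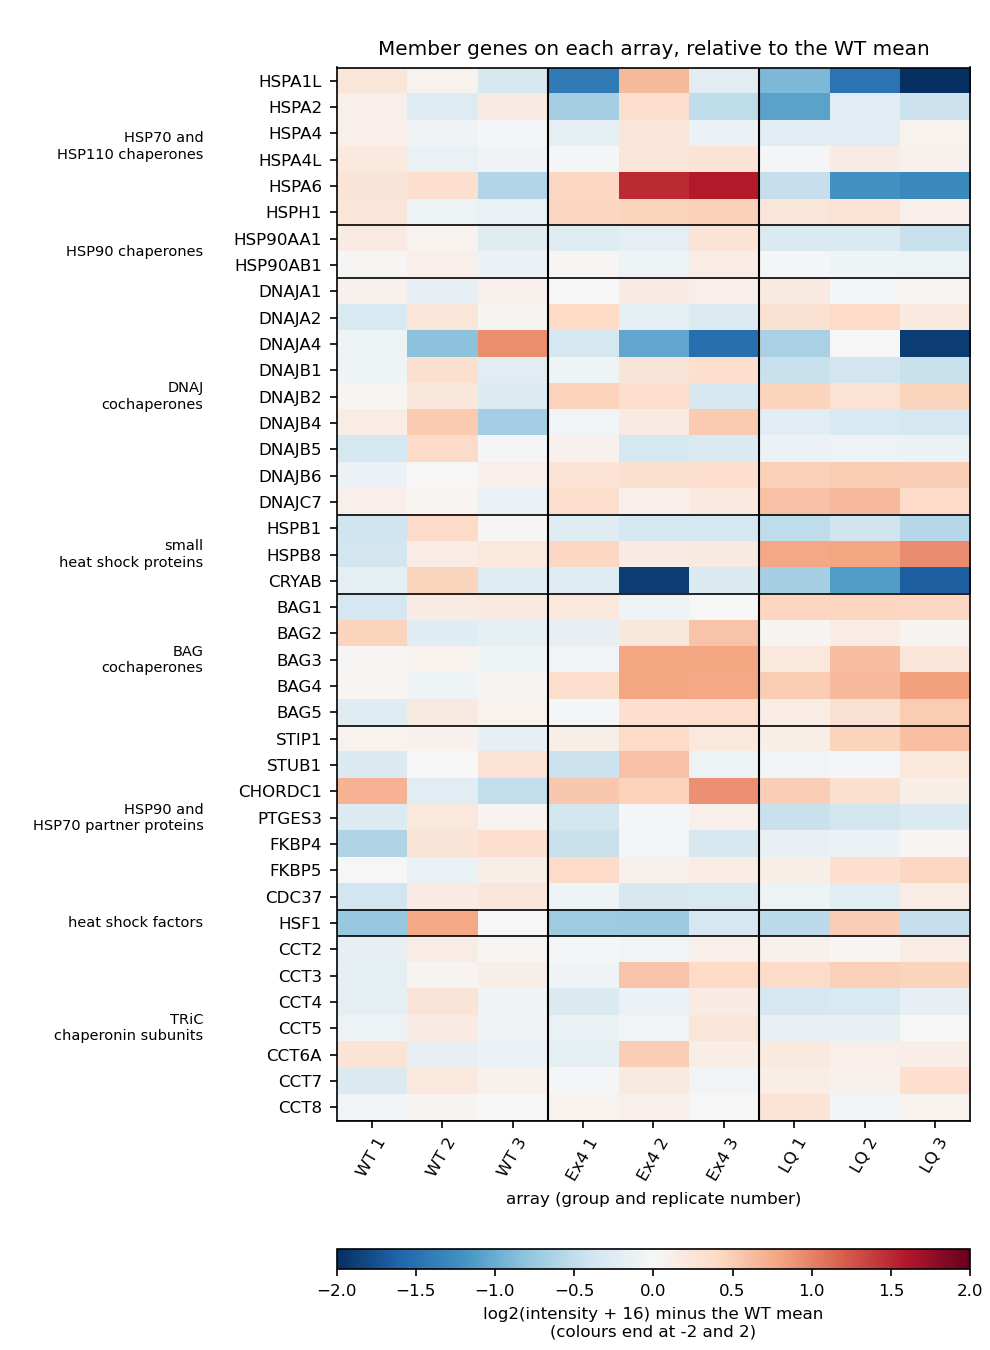
Each row is 1 of the 40 member genes with a probe set and each column 1 array; colour is log2(intensity + 16) minus the mean of the 3 WT arrays, and black lines separate groups and roles. HSPA6 is darkest red on Ex4 replicates 2 and 3, HSPB8 is red on all 3 LQ arrays, and the HSP90 and TRiC rows are pale on all 9 arrays.

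Among the HSP70 and HSP110 chaperones, none of the 6 tested members passed in either mutant. HSPA6, whose transcript is nearly absent from many cells until stress, read 2087, 2185 and 1145 on the WT arrays, 2315, 4917 and 5238 with Ex4, and 1250.2, 744 and 703 with LQ. All Ex4 arrays were above all WT and all LQ arrays, while LQ and WT overlapped at their nearest arrays. The change was 1.16 ± 0.36 with Ex4 (2.24-fold, SE, limma adjusted p = 0.10) and -0.99 ± 0.36 with LQ (adjusted p = 0.102). Without Ex4 replicate 1 the Ex4 change was 1.54 (adjusted p = 0.015), and the LQ change, unmoved at -0.99, had adjusted p = 0.048. That fit also called 13.8% of all genes with Ex4 and 14% with LQ. It was the only 1 of the 9 fits without 1 array in which either passed. Over the 9, the changes ran from 0.87 to 1.54 with Ex4 and from -1.28 to -0.82 with LQ. LQ was 4.44-fold below Ex4, a change of -2.15 ± 0.36 that was the most negative of the 14018 genes in that comparison but had an adjusted p of 0.678. It passed only with limma's array weights, at -2.37 (adjusted p = 0.040). A near-identical copy, HSPA7, may be read by the same probes, so what HSPA6 probes report is uncertain.

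The second HSPA6 probe set gave 1688, 1849 and 957 with WT, 1617, 2338 and 2340.2 with Ex4, and 861, 327 and 397 with LQ. All LQ arrays were below all WT arrays there. Its LQ change of -1.55 ± 0.37 passed (adjusted p = 0.037), a call kept in 4 of the 9 fits without 1 array, and its Ex4 change of 0.52 ± 0.37 did not (adjusted p = 0.403). Its change between LQ and Ex4 was -2.06 ± 0.37 (adjusted p = 0.773). Both probe sets thus placed LQ lowest, and they differed in how far Ex4 was from WT.

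HSPH1, the HSP110 protein that releases nucleotide from HSP70, read 14137, 11216 and 10935 with WT, 16181, 16352.5 and 16710.3 with Ex4, and 14183, 14720.3 and 12878 with LQ. The Ex4 arrays lay close together and above every other array. The Ex4 change was 0.45 ± 0.15 (limma adjusted p = 0.108). It was 0.57 without WT replicate 1, the WT array nearest to Ex4 (adjusted p = 0.021). Only that 1 of the 9 fits without 1 array passed, and the change ran from 0.38 to 0.57 over the 9. The LQ change was 0.21 ± 0.15 (adjusted p = 0.356). HSPA1L, a relative of the inducible HSP70s expressed mainly in testis, had an LQ change of -1.64 ± 0.57 (adjusted p = 0.0896), from 679, 602 and 454 with WT to 299, 194 and 84.7 with LQ, where all 3 arrays were below the array median. With WT and with Ex4, 1 of 3 arrays was below it too, so the gene was dim in every group. Its LQ change passed in 1 of the 9 fits without 1 array, that without Ex4 replicate 1 (adjusted p = 0.043). The other 3, HSPA2, HSPA4 and HSPA4L, had changes from -0.58 to 0.16 against WT. Between the mutants all 6 had negative changes, LQ below Ex4, and none passed. HSPA4L's turned to 0.01 with arrays centred on their medians, and without Ex4 replicate 2 HSPA2's turned to 0.01 and HSPA4's to 0.03.

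HSP90AA1 and HSP90AB1, the stress-responsive and the constitutive cytosolic HSP90, did not pass in either mutant. HSP90AA1 read 116957, 108768 and 88252 with WT, 87610.4, 92245 and 125590 with Ex4, and 84797, 85001 and 76336 with LQ. Its LQ arrays were all below the other 6, by a change of -0.34 ± 0.17 (limma adjusted p = 0.198, 95% confidence interval -0.71 to 0.02), which turned to 0.24 with arrays centred on their medians. HSP90AB1 read 71074, 75016 and 64403 with WT, 71083, 65599 and 77204 with Ex4, and 68568, 65814 and 65373 with LQ, groups that overlap. Its changes of 0.02 (interval -0.26 to 0.31) and -0.07 (-0.36 to 0.21) leave room for shifts of that size in either direction. For Ex4 the HSP90AA1 change was -0.05 (-0.41 to 0.32).

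**Figure D2:**
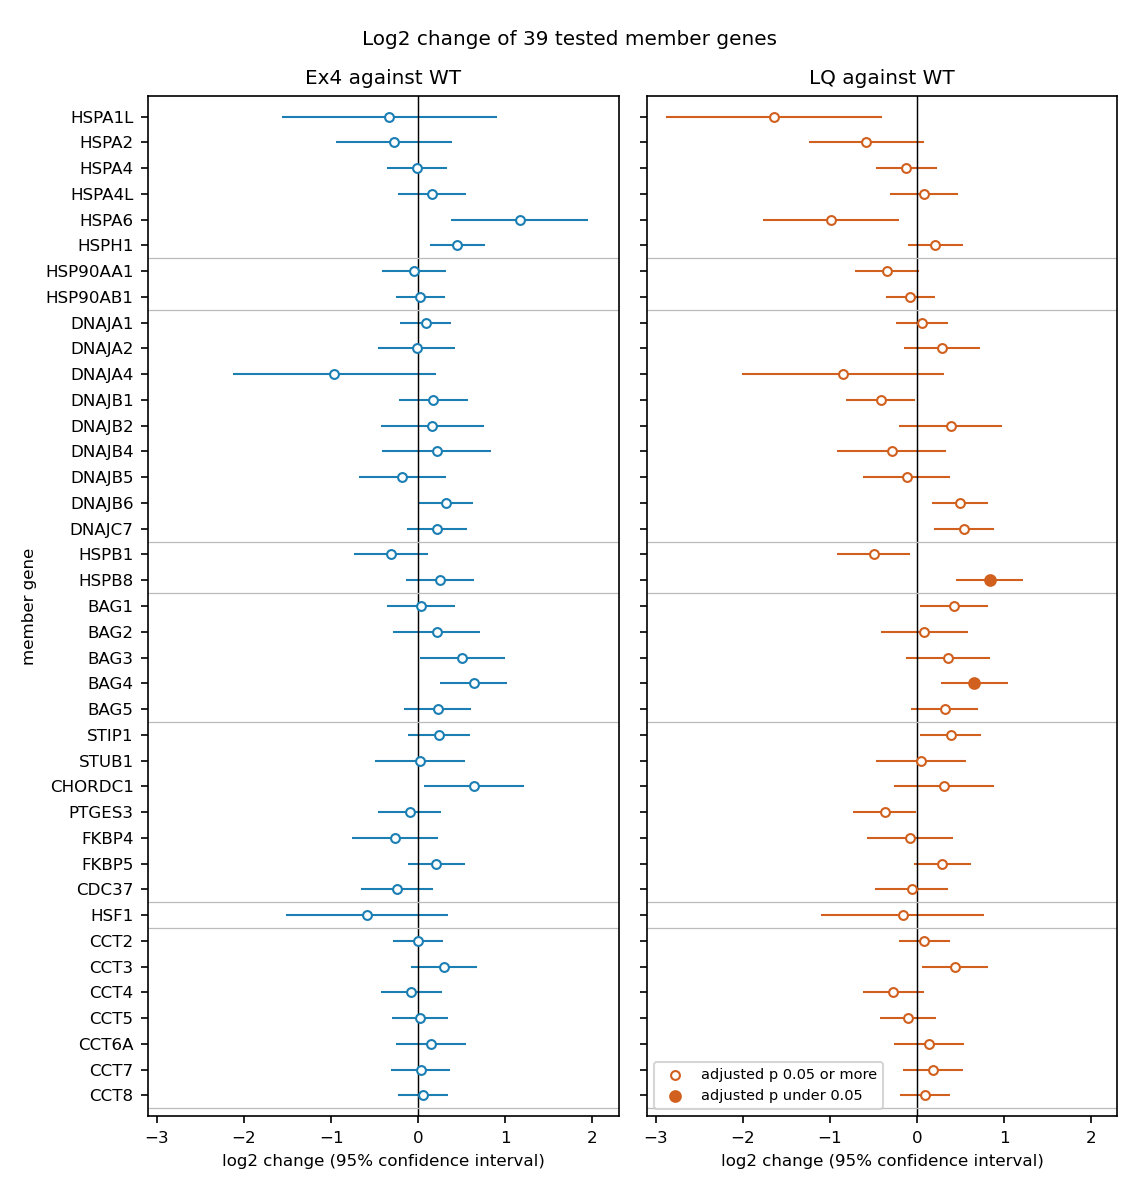
Points are log2 changes of the 39 tested members on the log2(intensity + 16) scale, for Ex4 against WT on the left and LQ against WT on the right, with 95% confidence intervals as lines and filled points for an adjusted p under 0.05; grey lines separate the roles. HSPB8 at 0.83 and BAG4 at 0.66, both in LQ, are the filled points, and HSPA6 lies at 1.16 with Ex4 and -0.99 with LQ.

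Of the 9 DNAJ cochaperones, all tested, 0 passed in any comparison. DNAJB1, the main HSP40 partner of inducible HSP70, read 6918, 9209 and 6255 with WT, 6927, 8840.4 and 9326 with Ex4, and 5429, 5731 and 5394 with LQ. All LQ arrays lay below the other 6. The changes were 0.17 ± 0.18 with Ex4 (limma adjusted p = 0.583), -0.41 ± 0.18 with LQ (adjusted p = 0.158) and -0.59 ± 0.18 between LQ and Ex4, and the LQ change turned to 0.17 with arrays centred on their medians. DNAJB6, a suppressor of polyglutamine aggregation, read 3860.4, 4243 and 4522.5 with WT, 5119, 5237.5 and 5310.2 with Ex4, and 5835, 5985 and 5939.9 with LQ. The 3 groups did not overlap, with LQ highest, yet neither 0.31 ± 0.15 with Ex4 (adjusted p = 0.210) nor 0.49 ± 0.15 with LQ (adjusted p = 0.0612) passed.

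DNAJC7, which binds both HSP70 and HSP90, read 5004, 4755 and 4229 with WT, 5961, 4982.5 and 5308.5 with Ex4, and 6982, 7337 and 6075 with LQ. All LQ arrays were above the other 6 there, with an LQ change of 0.54 ± 0.16 (limma adjusted p = 0.0585). Its other 2 probe sets had LQ changes of -0.69 and -0.79, neither of which passed. DNAJB4 likewise split. Its brightest probe set read 2158, 2801 and 1197 with WT and 1657, 1567 and 1519.8 with LQ, a change of -0.29 ± 0.29 (adjusted p = 0.526), with 1868, 2169 and 2776.5 with Ex4. The second, at 846, 791 and 662 with WT, 1184, 1353 and 1649 with Ex4, and 1494, 1366 and 1488 with LQ, rose by 0.91 ± 0.23 with LQ (adjusted p = 0.041), with 0.85 ± 0.23 for Ex4 (adjusted p = 0.0859). DNAJA4, with WT arrays from 617 to 2098, had the widest error of the group, at -0.96 ± 0.53 with Ex4 and -0.85 ± 0.53 with LQ. The remaining 4, DNAJA1, DNAJA2, DNAJB2 and DNAJB5, had changes from -0.18 to 0.39.

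HSPB8, a small heat shock protein that works with BAG3 to pass aggregating clients to autophagy, read 4482, 6397 and 6680.1 with WT, 7677, 6449 and 6537 with Ex4, and 9821, 9966 and 11144 with LQ. Every LQ array was above the other 6. It rose by 0.83 ± 0.18 with LQ (1.78-fold, limma adjusted p = 0.029), and its Ex4 change was 0.25 ± 0.18 (adjusted p = 0.399). The difference between the mutants, 0.58 ± 0.18 (interval 0.19 to 0.97), did not pass. In the second, dimmer HSPB8 probe set the LQ arrays were below all WT arrays instead. It read 738, 663 and 875 with WT, 434, 372 and 321 with Ex4, and 430.2, 507 and 473 with LQ, with changes of -0.67 ± 0.31 for LQ (adjusted p = 0.173) and -0.99 ± 0.31 for Ex4 (adjusted p = 0.10). The LQ call on the brightest probe set did not hold after quantile normalization (0.68, adjusted p = 0.0595) and was kept in 4 of the 9 fits that left out 1 array, where the change ran from 0.65 to 0.94. HSPB1, the abundant HSP27, read 4939, 8471 and 6583 with WT, 5526.5, 5085 and 5098 with Ex4, and 4556, 4925 and 4371 with LQ, with all LQ arrays below the other 6. Its LQ change of -0.50 ± 0.19 did not pass (adjusted p = 0.120) and was 0.09 with arrays centred on their medians. It passed in 1 of the 9 fits without 1 array, that without WT replicate 1 (-0.69, adjusted p = 0.0203).

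All 5 BAG cochaperones had positive changes in both mutants, and 1 of the 5, BAG4, passed, with LQ. The sign of BAG1 and BAG2 depended on the setting. BAG1 with Ex4 turned negative in 5 of 20 alternatives, at -0.08 after quantile normalization, -0.11 with array weights, -0.14 without WT replicate 1, -0.06 without Ex4 replicate 1 and -0.28 over the mean of its probe sets. BAG2 with LQ turned negative in 4, at -0.04 after quantile normalization, -0.03 and -0.01 without WT replicates 2 and 3 and -0.16 over the mean of its probe sets, which also turned it to -0.03 with Ex4. BAG4, which binds HSP70 and the death domain of TNF receptor 1, read 3278.5, 3021 and 3328 with WT, 4073, 5537 and 5507 with Ex4, and 4577, 5029.6 and 5688 with LQ. Both mutants were above WT on every array. The changes were 0.64 ± 0.18 with Ex4 (limma adjusted p = 0.0871) and 0.66 ± 0.18 with LQ (1.58-fold, adjusted p = 0.0469). Without Ex4 replicate 1 the Ex4 change was 0.78 (adjusted p = 0.017) and without WT replicate 1 it was 0.65 (adjusted p = 0.0484). The LQ call was kept in 2 of the 9 fits without 1 array, and was lost after quantile normalization (0.58, adjusted p = 0.0764). The other 2 BAG4 probe sets had LQ changes of 0.22 ± 0.42 and -0.23 ± 0.43.

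BAG3, the stress-induced partner of HSPB8, read 7011, 7273 and 6493 with WT, 6650, 11975 and 11950.1 with Ex4, and 7999, 10616 and 8199 with LQ. Ex4 replicate 1 lay among the WT arrays and the other 2 above all WT and LQ arrays. The Ex4 change was 0.51 ± 0.22 (limma adjusted p = 0.188) and 0.79 without that array (adjusted p = 0.0164). Only that 1 of the 9 fits without 1 array passed with Ex4, and the change ran from 0.37 to 0.79 over the 9. The LQ change was 0.36 ± 0.22 (adjusted p = 0.306). BAG1, another HSP70 nucleotide exchange factor, read 3948, 5598 and 5654 with WT, 5789, 4639 and 4972 with Ex4, and 6714, 6745 and 6682 with LQ. Its LQ arrays lay above the other 6, at 0.42 ± 0.18 (adjusted p = 0.142), and its Ex4 change was 0.03. BAG2 and BAG5 had changes from 0.09 to 0.32.

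**Figure D3:**
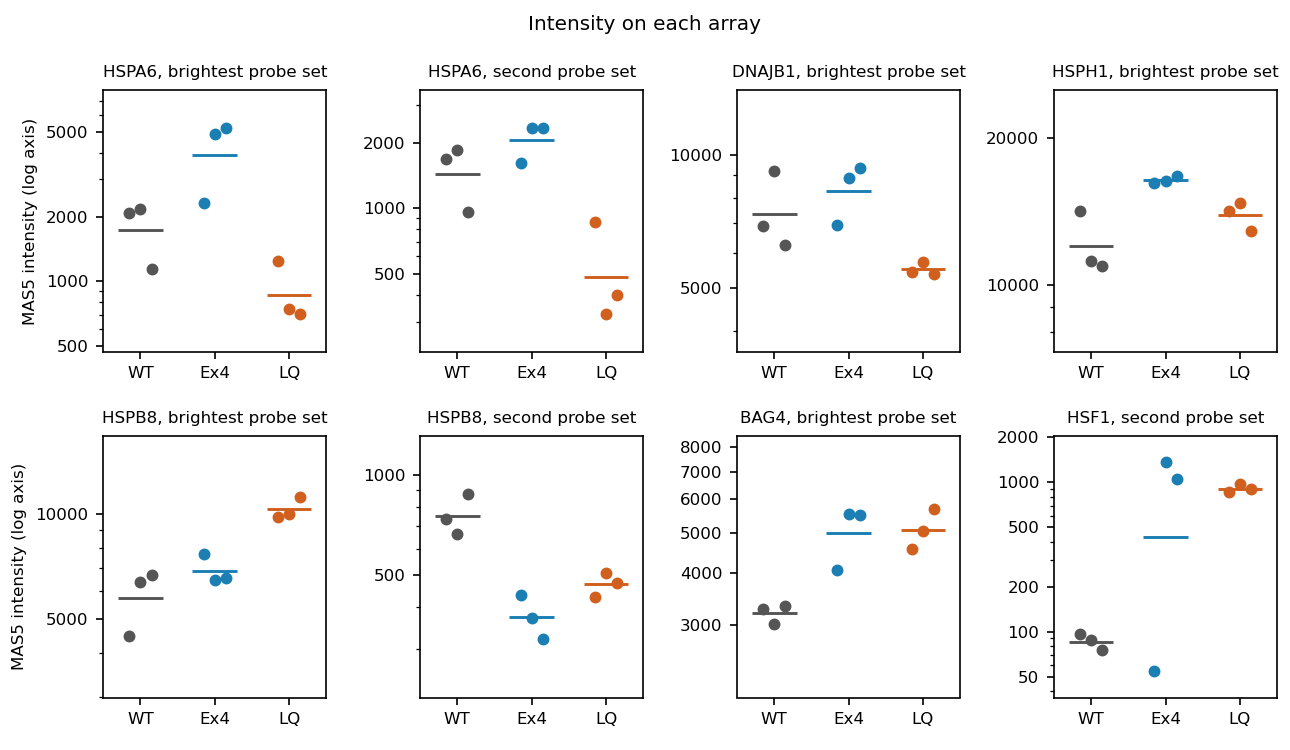
Points are MAS5 intensities (log axis) on each of the 9 arrays by group for 8 probe sets of 6 members, and the line is the group's geometric mean. The 2 HSPA6 probe sets both have LQ lowest, the 2 HSPB8 probe sets point opposite ways, and in the second HSF1 probe set Ex4 replicate 1, at 54.3, lies with WT.

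Among the partner proteins of HSP90 and HSP70, 0 of 7 tested members passed. CHORDC1, a heat-inducible HSP90 partner, had WT arrays at 16733, 8904.5 and 7273, Ex4 arrays at 14999.7, 14158 and 19460.5, and LQ arrays at 14443, 12875 and 11225.5. WT replicate 1 lay within the range of the mutants and the other 2 WT arrays below it. The Ex4 change was 0.64 ± 0.26 (limma adjusted p = 0.162) and 0.99 without that WT array (adjusted p = 0.0082). The LQ change was 0.31 ± 0.26 (adjusted p = 0.446) and 0.67 without it (adjusted p = 0.0331). No other fit without 1 array passed in either mutant, and the changes went down to 0.39 with Ex4 and 0.07 with LQ. STIP1, the adaptor that joins HSP70 to HSP90, read 12317, 12562 and 10555 with WT, 12842, 15287 and 13667 with Ex4, and 12749.7, 15954 and 17969 with LQ. All mutant arrays were above all WT arrays, by 0.24 ± 0.16 with Ex4 (adjusted p = 0.378) and 0.39 ± 0.16 with LQ (adjusted p = 0.141), and its second probe set had -0.37 and -0.12.

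PTGES3, the p23 cochaperone that stabilises client-bound HSP90, had an LQ change of -0.37 ± 0.17 (limma adjusted p = 0.168), with all LQ arrays (43862 to 49131) below all WT arrays (49539 to 69501). It was 0.22 with arrays centred on their medians. The immunophilin FKBP5 had LQ arrays of 14132 to 17351 above WT arrays of 11919 to 14096, a change of 0.29 ± 0.15 (adjusted p = 0.219). STUB1, the ubiquitin ligase that tags chaperone clients, FKBP4 and the kinase cochaperone CDC37 had changes from -0.26 to 0.05. FKBP4 in Ex4 was -0.57 without WT replicate 1 (adjusted p = 0.0373), the only brightest probe set of a member called lower in Ex4 under any setting run.

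HSF1 itself was read by 2 probe sets that differed. The brightest read 377, 1121 and 647 with WT, 391, 389 and 512 with Ex4, and 449.8, 923 and 466 with LQ. Its groups overlapped, with changes of -0.59 ± 0.43 for Ex4 (limma adjusted p = 0.408) and -0.16 ± 0.43 for LQ (adjusted p = 0.824). The second read 96.8, 87.3 and 74.9 with WT, 54.3, 1372 and 1058 with Ex4, and 858, 971 and 900.4 with LQ. All WT arrays and Ex4 replicate 1 were far below the other 5 there. Its LQ change was 3.18 ± 0.87 (adjusted p = 0.0489) and its Ex4 change 2.21 ± 0.87 (adjusted p = 0.151). Without Ex4 replicate 1 the Ex4 change was 3.58 (adjusted p = 0.000797), past the threshold, and the LQ change 3.18 (adjusted p = 0.0008). The LQ call was kept in 3 of the 9 fits without 1 array. Since its WT values are well below the WT array medians the size of the change rests on dim values.

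No subunit of the TRiC chaperonin passed with the settings as reported. CCT3 with LQ was called in 2 of the 20 alternative settings, median centring among them. Its 7 tested subunits had changes from -0.08 to 0.30 with Ex4 and from -0.27 to 0.43 with LQ, and 0 passed. CCT3 read 23168, 27364 and 28466 with WT, 24642, 39129.7 and 34680.2 with Ex4, and 34061, 36682 and 35600.1 with LQ. All LQ arrays were above WT, at 0.43 ± 0.17 (limma adjusted p = 0.127), and Ex4 was at 0.30 ± 0.17 (adjusted p = 0.306). CCT4, from the same ring, read 48317, 64929 and 51865 with WT, 44679, 50302.7 and 61071 with Ex4, and 43094, 44208 and 48545 with LQ, groups that overlap. Its LQ change of -0.27 ± 0.16 (adjusted p = 0.281) turned to 0.31 with arrays centred on their medians. The intervals of CCT2, CCT5, CCT6A, CCT7 and CCT8 in both mutants all include 0. Centring arrays on their medians moved the median of all genes to 0.49 with LQ, and 30.2% of all genes were then called, 4057 higher and 170 lower. In that setting 4 of the 7 tested subunits were called higher with LQ: CCT2 at 0.67 (adjusted p = 0.0305), CCT3 at 1.02 (adjusted p = 0.0133), CCT7 at 0.77 (adjusted p = 0.0286) and CCT8 at 0.68 (adjusted p = 0.0237). These calls came with a shift of all genes and are no result about the subunits.

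Set directly against each other, the mutants differed in no member past the threshold (0 of 39, with 0% of all genes). At an unadjusted p under 0.05, HSPB8 and BAG1 were higher with LQ and HSPA1L, HSPA6 and DNAJB1 lower, 12.8% of the members against 4.19% of all genes (2.19% higher and 2% lower). In 4 members every LQ array was above every Ex4 array, against 5.91% of all genes, and in 6 every one was below, against 6.47%. The 4 were DNAJB6, DNAJC7, HSPB8 and BAG1, and the 6 HSPA6, HSPH1, HSP90AA1, DNAJB1, DNAJB4 and HSPB1. Positive changes numbered 20 of 39, against 48.5% of all genes, and the median change over members was 0.03, against -0.01 over all genes.

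Where a gene has several tested probe sets, these often disagreed. Of 27 such members, all probe sets had the same sign of change in 11 with Ex4, in 14 with LQ and in 16 between the mutants. Over the 80 tested probe sets of members, 4 were called higher and 1 lower with LQ, against 6.81% of all 32768 probe sets, and 0 were called with Ex4, against 0.0122%, and 0 between the mutants, against 0.0061%. The 4 were the brightest of HSPB8 and BAG4 and the second of HSF1 and DNAJB4, and the lower one the second of HSPA6. Averaging the probe sets of a gene left HSPB8 at 0.08 (limma adjusted p = 0.764) and BAG4 at 0.22 (adjusted p = 0.539) with LQ, and HSPA6 at -1.27 (adjusted p = 0.0472) and DNAJB6, which has 1 probe set, at 0.49 (adjusted p = 0.0433).

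**Figure D4:**
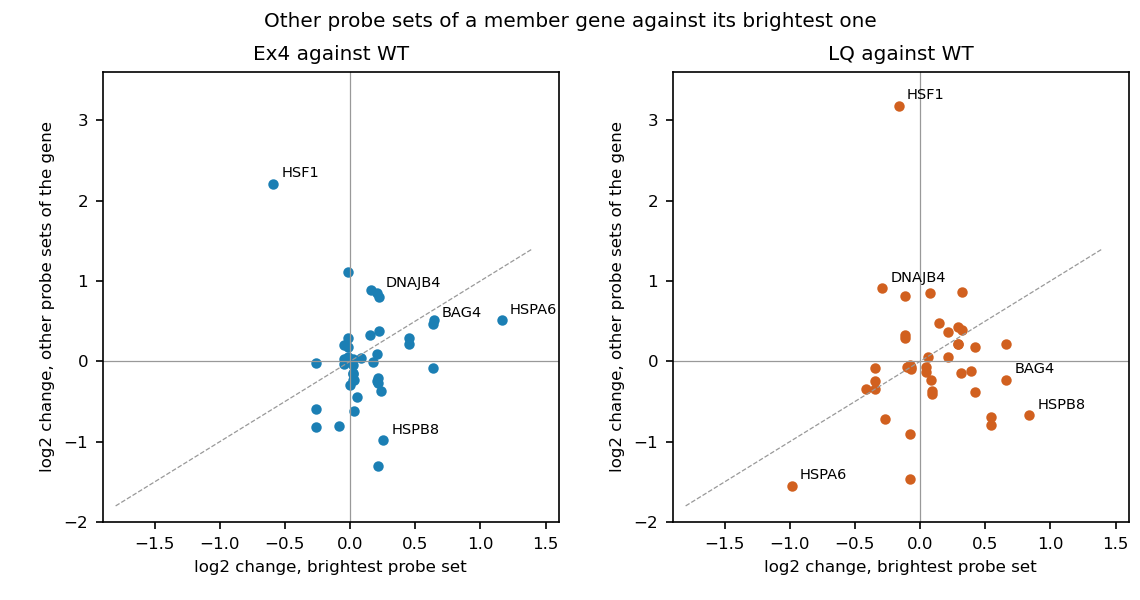
Each point is a further tested probe set of a member, with the log2 change of the gene's brightest probe set on the horizontal axis and its own on the vertical axis, for Ex4 against WT on the left and LQ against WT on the right; the dashed line marks equal changes. HSF1 lies at 3.18 and DNAJB4 at 0.91 with LQ above negative changes of their brightest probe sets, and HSPB8 lies at -0.67 below a positive one.

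Beyond the 44, 57 other genes of cytosolic folding were listed (prefoldin and its relatives, further HSP70, DNAJ, HSP90 partner and small heat shock genes, and partners of heat shock factors), of which 42 were tested. With Ex4 0 passed, as did 0% of all genes. With LQ 0 were higher and 2 lower, 4.76% against 7.32% of all genes called in either direction and 3.63% called lower, a share near that background and no result about the list. HSBP1, which binds HSF1 and restrains it, fell by 0.75 ± 0.17 (limma adjusted p = 0.0317), from 18167.5, 24506 and 23114 with WT to 10819.9, 14058 and 14285 with LQ, with Ex4 at 15538, 15549.9 and 17935. All Ex4 and LQ arrays were below all WT arrays, and the Ex4 change was -0.42 ± 0.17 (adjusted p = 0.158). The HSBP1 call was kept in 4 of the 9 fits without 1 array, and its LQ change was -0.16 (adjusted p = 0.64) with arrays centred on their medians. DNAJB13, a testis DNAJ protein of sperm flagella and cilia, fell by 1.90 ± 0.43 (adjusted p = 0.0327), from 1342, 1355 and 1516.5 with WT to 359.5, 389 and 348 with LQ, with Ex4 at 834, 384 and 195.1. All Ex4 arrays were below all WT arrays too, and the Ex4 change was -1.77 ± 0.43 (adjusted p = 0.0786), or -2.29 without Ex4 replicate 1 (adjusted p = 0.00421). The DNAJB13 LQ call was kept in 4 of the 9 fits without 1 array. UBB, a polyubiquitin gene induced by heat, had an LQ change of -0.60 ± 0.17 (adjusted p = 0.052). The prefoldin subunits VBP1 and PFDN2, which hand actin and tubulin to TRiC, had 0.47 ± 0.15 (adjusted p = 0.0663) and 0.40 ± 0.16 (adjusted p = 0.120), the HSP90 partners CDC37L1 and SUGT1 0.68 ± 0.24 (adjusted p = 0.0907) and 0.50 ± 0.24 (adjusted p = 0.183), DNAJC9, a histone cochaperone, 0.42 ± 0.15 (adjusted p = 0.103), and HSPB6 -0.74 ± 0.53 (adjusted p = 0.374). With Ex4, CDC37L1 and SUGT1 were each at 0.59 ± 0.24 (adjusted p = 0.159 and 0.154), and the changes of UBB, VBP1, PFDN2, DNAJC9 and HSPB6 lay from -0.42 to 0.33.

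**Figure D5:**
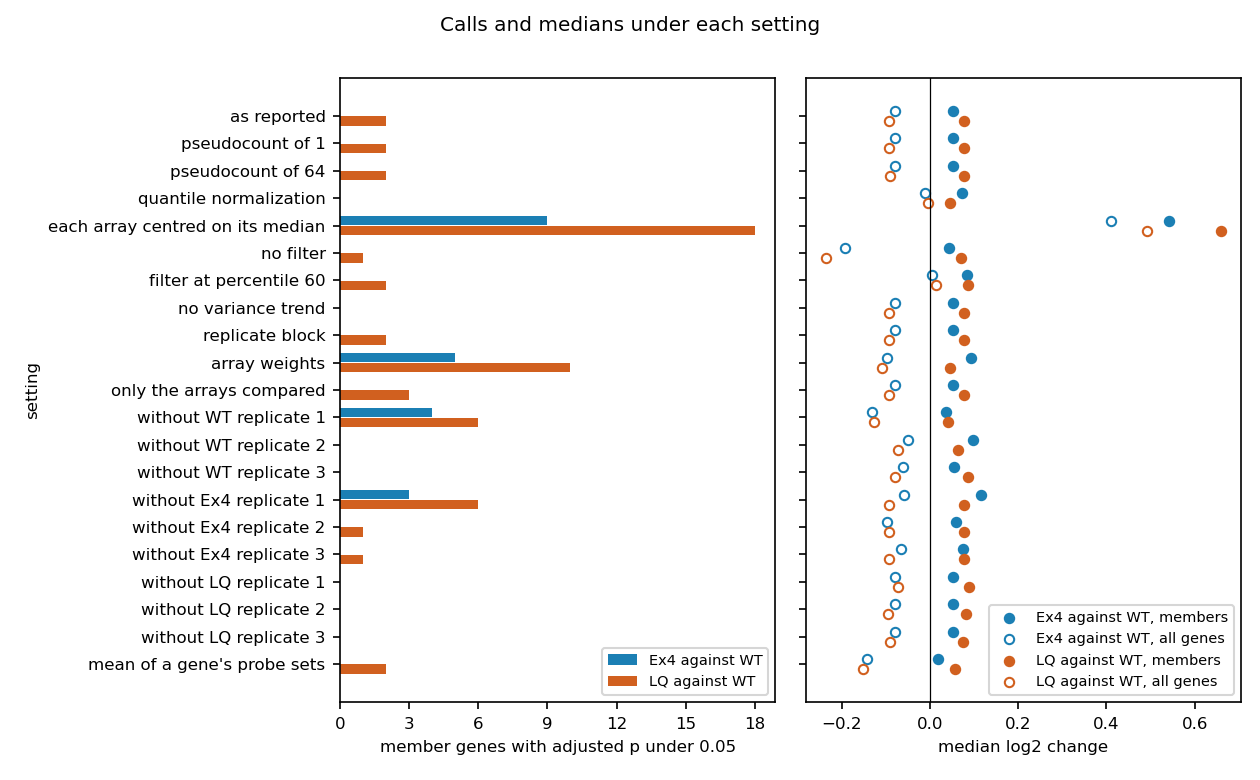
Bars on the left count the members with an adjusted p under 0.05 in each mutant against WT under each of the 20 alternative settings, below the setting as reported; points on the right are the median log2 changes of members (filled) and of all tested genes (open). The count is 0 with Ex4 and 2 with LQ as reported. It reaches 9 and 18 with arrays centred on their medians, where 19.3% and 30.2% of all genes are called. The median changes leave the range of the other settings only with that centring.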

How the data were processed

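The members, roles, other lists and rules were chosen with earlier results of these data known. The deposited table holds linear intensities that MAS5 computed, per the submitters' processing notes, which name no version, and the authors' scaling was kept. Of 54675 probe sets, 62 are controls, 41091 of the others name 1 gene, 1801 several and 11721 none. Symbols were updated by gene identifier, and 54 kept the annotation's. Intensities were used as log2(value + 16), which understates changes of dim probe sets. Probe sets under percentile 40 of the mean were left out, and 32768 were tested.

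A single two-sided limma fit (3.58.1, R 4.3.3, with a variance trend and no replicate number) used all 9 arrays, and was tested on simulated data. The number of arrays limits the precision. Genes given in full were the core heat shock genes, the 2 with the smallest p in each role and any with a called probe set, and in other lists the 2 with the smallest p against WT. HSPA1L, PTGES3, FKBP4, FKBP5 and CRYAB were added after their values were seen.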

Additional observations from a re-analysis of the deposited data

How the results depend on the processing

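With Ex4 against WT, 9 members were called with each array centred on its median, 5 with array weights, and 0 to 4 without 1 array (4 without WT replicate 1, 3 without Ex4 replicate 1), against 0 as reported. With LQ against WT the count of 2 went to 0 after quantile normalization and with no variance trend, to 1 with no filter, to 10 with array weights (7 higher, 3 lower), to 18 with median centring, and to 0 to 6 without 1 array: 6 without WT replicate 1 or Ex4 replicate 1, 1 without Ex4 replicate 2 or 3, and 0 without WT replicate 2 or 3 or any LQ array. The LQ share of all genes called moved too, from 7.32% to 3.43% after quantile normalization, 30.2% with median centring and 28.6% with array weights. It was 1.24% with no trend, 3.34% with no filter and 0.0214% to 17.8% without 1 array. Between the mutants 1 member (HSPA6) was called with array weights and 0 otherwise. The medians moved past the spread between arrays only with median centring (0.54 with Ex4, 0.66 with LQ). Replicate numbers in the titles did not pair the arrays (deviations of same-number pairs correlated at -0.08 to 0.19, with 4 of 9 pairs over 0.1, and 1 of 9 arrays correlated best with its own number in both other groups). Used as a replicate block, they left the counts at 0, 2 and 0 and the medians at 0.05, 0.08 and 0.03. Of 2334 single-gene changes under the alternatives, 2258 kept their side of the threshold, 57 passed it newly, 19 no longer did, 0 called changes reversed, and 140 uncalled ones changed sign, 28 of them with median centring, 25 with probe sets averaged and 13 with quantile normalization. The cause of these shifts was not tested. Dim probe sets such as the second of HSF1 limit what can be read from WT levels.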
